A study of Mus musculus with 24 samples.

Results

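The integrated stress response genes were followed across every group of a study of MLL1 and MLL2 in mouse embryonic stem cells (mESC). They form a list of 36 genes, most of them described as targets of the stress factors ATF4 and CHOP, and were chosen by gene symbol. All 36 of 36 were present among the 19953 genes of the table of normalized counts. Polyadenylated RNA had been sequenced from cells of 4 genotypes, each at 2 time points. Every one of the 8 groups had 3 libraries, 24 in total. Mll1-KO cells carried a CRISPR deletion in Mll1 made with a pair of guide RNAs, in a line whose Mll2 can be deleted by an inducible Cre, and were untreated. Mll2-KO cells had been given 800 nM 4-hydroxytamoxifen (4-OHT), which activates the Cre, for 48 h. Double-KO cells had lost both genes and had received the same 4-OHT dose. WT cells were untreated. Day 0 cells grew on gelatin with LIF in 15% serum, and day 4 cells had been differentiated with 1 µM retinoic acid in 10% serum without listed LIF. The day 4 medium named L-glutamine in place of glutaMAX, and its β-mercaptoethanol is labelled in nM, against mM at day 0.

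The labels do not say which line served as WT, whether a mutant line is 1 clone, or whether the 3 libraries of a group came from separate cultures. The p-values therefore measure the spread between these libraries, which may be technical. Loss of Mll2 and exposure to 4-OHT cannot be told apart where the treated Mll2-KO or double-KO is set against the untreated WT or Mll1-KO. They are matched in Mll1-KO against WT, both untreated, and in double-KO against Mll2-KO, both treated.

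MLL1 and MLL2 are methyltransferases for lysine 4 of histone H3, encoded by Kmt2a and Kmt2b. In the integrated stress response, the kinases GCN2, PERK, HRI and PKR phosphorylate the translation factor eIF2α, which slows protein synthesis in general but favours translation of the Atf4 mRNA. ATF4, with partners such as C/EBP proteins and CHOP (encoded by Ddit3), then binds promoters of genes for amino acid synthesis, amino acid transport and tRNA charging, and of regulators that feed back on the response. Mouse embryonic stem cells divide fast and draw heavily on amino acids and one-carbon units. Neither eIF2α phosphorylation nor the ATF4 protein was measured here, and mRNA levels stand alone.

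The binding element of ATF4 with a C/EBP partner reads TGATGCAA in its best-known form. The RefSeq promoter table (GRCm38.p6) held 31 of the 36 genes. On either strand of the 250 bases before the start, these letters were present in 9 of the 31 (29.0%), against 117 of all 15522 promoters (0.754%). With any base at the sixth letter (TGATGNAA, which includes the first motif), the counts were 12 of 31 (38.7%) and 437 of 15522 (2.82%). Most members were listed as described targets of ATF4 and CHOP, so a higher share than in all promoters is partly built into the list. The windows below belong to members on which the later values turn, each with up to 35 bases on both sides, read on the strand of the gene, with the motif in capitals. Its complement, TTGCATCA, appears where the match lies on the other strand. A match describes these letters only and was not tested as a binding site.
Chac1: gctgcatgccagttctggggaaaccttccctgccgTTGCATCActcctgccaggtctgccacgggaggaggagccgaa
Atf3: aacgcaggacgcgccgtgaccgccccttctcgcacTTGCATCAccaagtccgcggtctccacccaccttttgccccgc
Nupr1: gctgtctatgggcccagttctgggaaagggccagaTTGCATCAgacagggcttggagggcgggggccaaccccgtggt
Inhbe: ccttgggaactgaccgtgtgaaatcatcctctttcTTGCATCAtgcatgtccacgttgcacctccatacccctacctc
Slc7a11: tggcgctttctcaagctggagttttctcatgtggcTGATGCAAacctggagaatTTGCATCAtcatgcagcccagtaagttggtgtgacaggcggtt
Pycr1: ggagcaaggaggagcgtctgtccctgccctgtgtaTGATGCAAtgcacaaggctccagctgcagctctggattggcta
Aars: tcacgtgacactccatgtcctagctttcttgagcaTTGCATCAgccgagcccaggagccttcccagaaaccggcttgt
Asns: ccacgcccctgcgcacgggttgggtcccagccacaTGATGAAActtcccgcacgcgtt
Pck2: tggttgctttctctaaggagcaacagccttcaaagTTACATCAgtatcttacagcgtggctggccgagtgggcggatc

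The Chac1 window lies at chr2:119351014-119351091 (plus strand) and the Atf3 window at chr1:191183401-191183478 (minus strand). The Nupr1 window is chr7:126625538-126625615 (minus strand) and the Inhbe window chr10:127351987-127352064 (minus strand). The Slc7a11 window, chr3:50443618-50443714 (minus strand), holds 2 copies facing each other, starting at -66 and -47 from the start of the gene. The Pycr1 window is chr11:120643809-120643886 (minus strand) and the Aars window chr8:111033695-111033772 (plus strand). Asns, at chr6:7693210-7693267 (minus strand), and Pck2, at chr14:55540128-55540205 (plus strand), matched only with the free letter. Ddit3, Trib3, Atf4, Atf5 and Cebpb were in the promoter table without a match in this window. Fgf21 and Tars held the full motif, and Gars the form with the free letter.

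Depth recovered from the table was 10748425 to 17138558 reads per library at day 4 and 17703443 to 22787858 at day 0. Kmt2a, the deleted gene, averaged 29.7 normalized counts in day 0 Mll1-KO and 29.7 in double-KO, against 1381 in Mll2-KO and 1089 in WT, and at day 4 it averaged 55.9 in Mll1-KO and 104 in double-KO, against 2362 in Mll2-KO and 2141 in WT. The whole-gene count of Kmt2b (2540 in day 0 Mll2-KO and 2640 in double-KO, against 2853 in WT) does not check an exon deletion. At day 0 the summed level of 8 pluripotency markers was 104800 to 110300 in Mll1-KO, 118100 to 120500 in Mll2-KO, 108400 to 110500 in double-KO and 109000 to 109700 in WT, so that Mll2-KO lay above all other groups; its part in the results was not tested. Replicate 3 of the day 0 Mll2-KO stood apart. It was the highest of its group for 34 of 36 members, and its chi-square per degree of freedom against the other replicates was 11.5 and 11.4, against 3.54 between those 2. In day 0 Mll1-KO, replicate 3 was the lowest of its group for 27 of 36 members, and the chi-squares between replicates of that group were 4.78 to 9.34. Exons of 7 members overlap exons of another gene in the table, on the opposite strand for 6 of them (Ddit3 with Mars1, Atf5 with Nup62, Cebpb with Tmem189, Psph with Cct6a, Ppp1r15a with Tulp2, Shmt2 with Ndufa4l2) and on the same strand for Aars with Exosc6. The library kit keeps strand, but whether counting used it is not given in the sources used here, so reads of these pairs may not be fully apart.

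**Figure D1:**
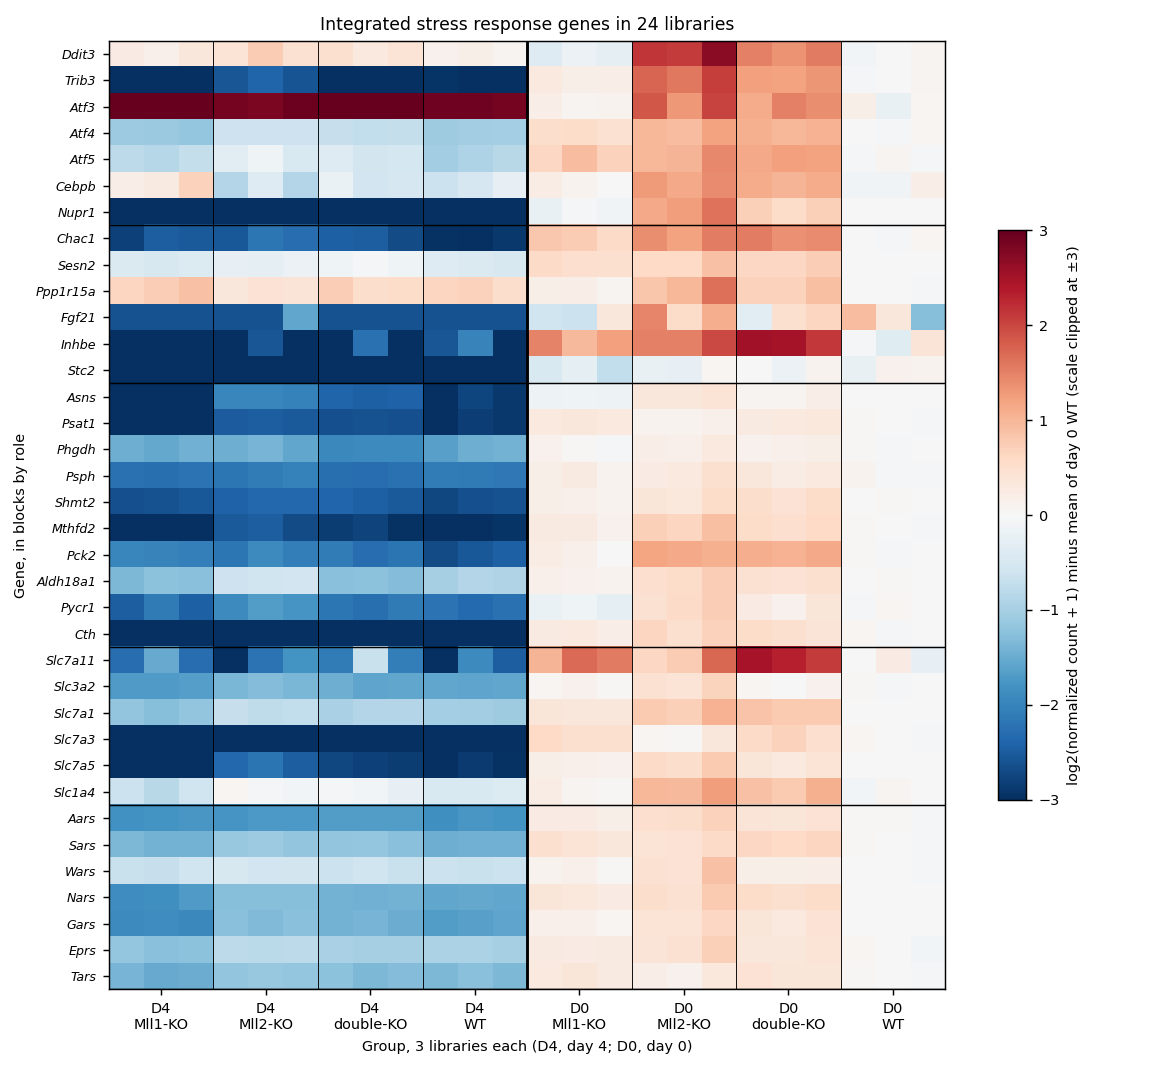
Level of the 36 integrated stress response genes in each of the 24 libraries, as log2(normalized count + 1) minus the mean of the 3 day 0 WT libraries; rows are genes in blocks by role, columns are libraries in groups of 3, and the colour scale stops at ±3. The day 0 Mll2-KO and double-KO columns are red for most rows, and the day 4 columns of all genotypes are blue for most rows, with Atf3 and Ppp1r15a among the exceptions.

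Loss of Mll2 at day 0 went with higher mRNA of nearly the whole list. In Mll2-KO against WT, limma called 33 of 36 members higher at an adjusted p below 0.05, where 22.8% of all 13984 genes tested were called higher. The list was chosen with earlier results of these data known, so its distance from all genes is a description and no independent test. No member was called lower, against 24.3% of all genes; none had an unadjusted p below 0.05 in that direction either, and edgeR and DESeq2 each called 0. The median log2 difference of the members was 0.62, beside -0.0049 over all genes. A difference on the log2 scale of the normalized count + 1 is meant throughout. All 7 transcription factors and regulators, all 10 synthesis enzymes and all 7 tRNA synthetases were called higher, as were 4 of 6 effectors and 5 of 6 transporters. Replicate 3 of Mll2-KO, which stood apart, was kept in the fit but did not carry these counts. Leaving out any 1 of the 6 libraries gave 32 to 34 members higher. The sizes leaned on it more. Over 33 members with a WT mean of 50 or more, the median difference from the WT mean was taken per library. It was 0.52, 0.53 and 0.78 in Mll2-KO replicates 1, 2 and 3. In bulk RNA a change in the share of cells that express a gene and a change in RNA per cell cannot be told apart.

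Ddit3, which encodes the pro-apoptotic factor CHOP, moved most. It had 1143, 1097 and 1681 normalized counts in day 0 Mll2-KO, against 241, 256 and 273 in WT. The lowest Mll2-KO library was thus far above the highest WT library. The difference was 2.32 ± 0.12 (SE), or 4.98-fold, at an adjusted p of 7.3e-12. Trib3, a pseudokinase that restrains ATF4 and AKT signalling, had 3559.6, 3141 and 4441 in Mll2-KO and 1018, 1041 and 1109 in WT. Its difference was 1.80 ± 0.083, again with no overlap. Atf3, an ATF-family factor of acute stress, had 251, 169 and 283 in Mll2-KO and 77.3, 58.5 and 70.7 in WT. The Atf3 difference of 1.73 ± 0.17 came with the widest spread of the named factors, yet every Mll2-KO library exceeded every WT library.

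Atf4 itself, the central activator of the response, had 11259.8, 10877 and 13205 normalized counts in Mll2-KO and 5625, 5480.5 and 5958 in WT. The groups were far apart, with a difference of 1.05 ± 0.057. Atf4 lies at chr15:80255184-80257541 (plus strand) and Trib3 at chr2:152337422-152344032 (minus strand) in mm10. The stress-regulated chromatin factor Nupr1 was higher by 1.34, the C/EBP partner Cebpb by 1.28, and Atf5, another factor translated under eIF2α phosphorylation, by 1.15. Their libraries did not overlap between the groups.

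Among the effectors, Chac1, which degrades glutathione, had 1137, 997 and 1255 in Mll2-KO and 433, 411 and 443 in WT, a difference of 1.39 ± 0.08. Ppp1r15a, the phosphatase subunit GADD34 that reverses eIF2α phosphorylation, had 1241, 1388 and 2195 in Mll2-KO and 707, 700.2 and 679.5 in WT. Replicate 3 gave much of the 1.16 ± 0.13 difference of Ppp1r15a, but the other 2 Mll2-KO libraries also lay above all WT libraries. Inhbe, which encodes the activin βE chain, was higher by 1.67 ± 0.28 at low levels, with 33.1, 33.1 and 46.5 in Mll2-KO and 10.7, 8.35 and 14.8 in WT. Sesn2, a leucine sensor that inhibits mTORC1, was higher by 0.69. Stc2, a secreted glycoprotein, did not pass (-0.14 ± 0.12, libraries overlapping), nor did the hormone Fgf21, whose 16.1, 8.06 and 12.2 in Mll2-KO overlapped the 10.7, 6.84 and 1.55 in WT.

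The metabolic members moved less than the factors. The mitochondrial enzyme Pck2, which makes phosphoenolpyruvate, had the largest difference of the synthesis enzymes, with 3758, 3627 and 3472 in Mll2-KO against 1698, 1619 and 1646 in WT (1.13 ± 0.056). The mitochondrial one-carbon enzyme Mthfd2 was higher by 0.75, cystathionine γ-lyase (Cth) by 0.61, and the proline synthesis enzymes Aldh18a1 and Pycr1 by 0.60 and 0.59. Asparagine synthetase (Asns), a standard readout of ATF4, rose by only 0.37 ± 0.042, with 14277, 14452 and 15137 in Mll2-KO and 11391, 11338 and 11274 in WT. The serine synthesis enzymes Phgdh and Psat1 had the smallest differences among the synthesis enzymes, 0.22 and 0.12. Of the transporters, Slc1a4, which carries alanine, serine and cysteine, was higher by 1.07, and the cationic carrier Slc7a1 by 0.85. The leucine carrier Slc7a5 was higher by 0.63, and its heavy chain Slc3a2 by 0.51. The cystine carrier Slc7a11, at low levels, was higher by 1.04 ± 0.28. The arginine carrier Slc7a3 did not pass (0.15 ± 0.069). The tRNA synthetases were higher by 0.22 (Tars) to 0.59 (Nars), a band narrower than that of any other role.

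Members with and without a promoter motif were both higher. The 12 with TGATGNAA had a median difference of 1.04 in day 0 Mll2-KO against WT, with 11 called higher. The 19 without it in this window had a median of 0.69, with 18 called higher, and they included the largest difference, that of Ddit3. Sequence farther upstream was not searched.

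The same loss in cells without MLL1 gave the same direction with a smaller median. In double-KO against Mll1-KO at day 0, 26 of 36 members were called higher (18.9% of all genes) and 0 lower (22.0% of all genes), with no member lower at an unadjusted p below 0.05 by limma and 0 called lower by edgeR or DESeq2. The members' median was 0.34, against -0.015 for all genes. This comparison shares no library with Mll2-KO against WT, so the lists can be set side by side. The 25 genes called higher in both were 96.2% of the 26 and 75.8% of the 33. For all genes called higher, those shares were 67.9% and 56.3%.

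Ddit3 had 728, 651 and 763 normalized counts in double-KO and 197, 228 and 211 in Mll1-KO, a difference of 1.75 ± 0.12. No double-KO library came near any Mll1-KO library. Atf3 was higher by 1.21, Inhbe by 1.15, Trib3 by 1.02, Cebpb by 0.97, Pck2 by 0.96 and Slc1a4 by 0.80. Atf4 had 11889.7, 11297 and 11759 in double-KO and 8228, 8269.7 and 7806 in Mll1-KO, a difference of 0.52 ± 0.057. Chac1 was higher by 0.73 and Asns by 0.27. Slc7a11 was higher by 0.88 ± 0.28, and that call was lost without replicate 1 of either group, at 0.79 without the double-KO library and 0.68 without the Mll1-KO library. Psat1, Slc3a2 and Slc7a3 lay near 0 (-0.015, -0.0039 and 0.068), with overlapping libraries.

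**Figure D2:**
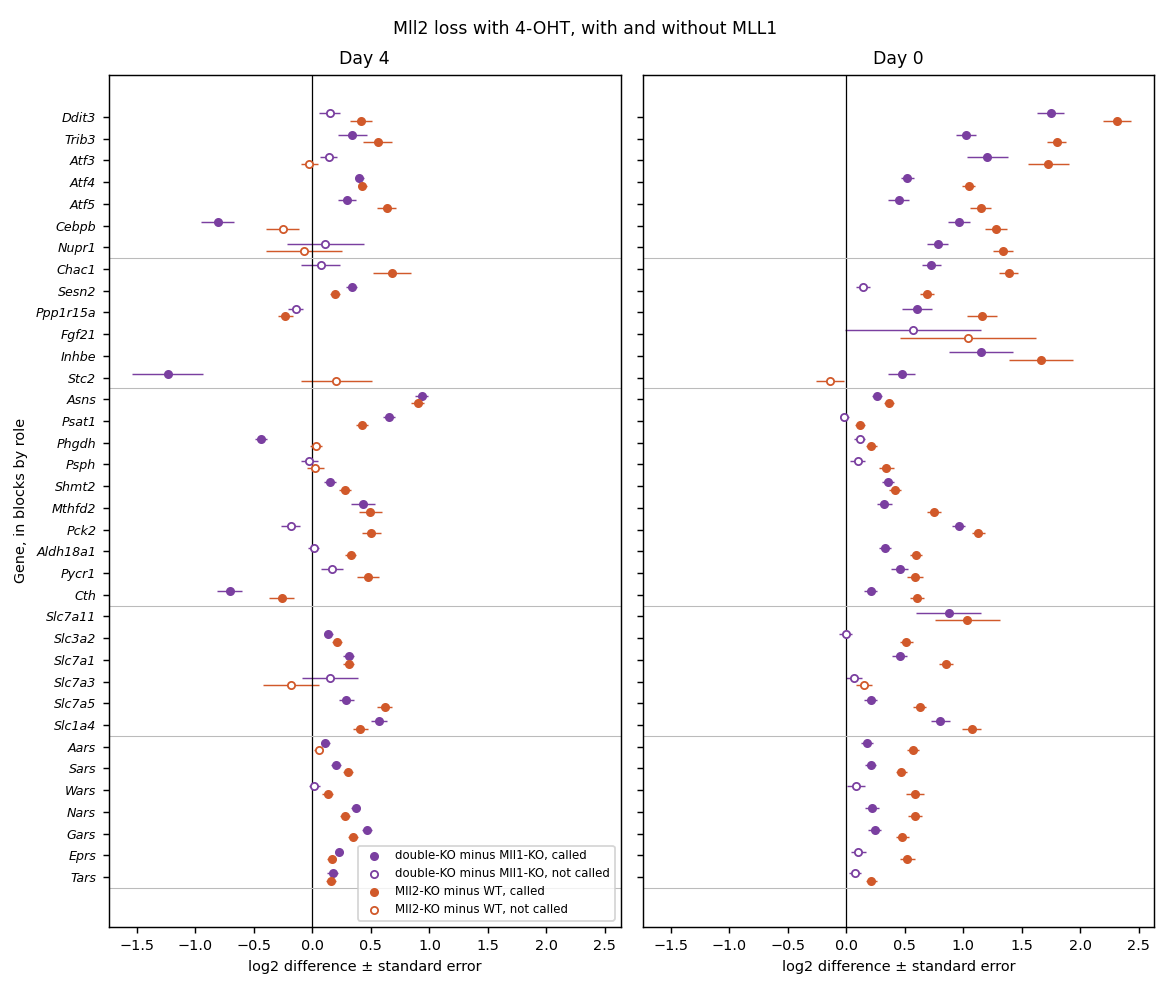
Difference of each gene with loss of Mll2 and 4-OHT, on the log2(normalized count + 1) scale with its standard error, at day 4 (left) and day 0 (right); purple points are double-KO minus Mll1-KO, orange points Mll2-KO minus WT, and filled points were called at an adjusted p below 0.05. At day 0 nearly all points lie right of 0, led by Ddit3 at 1.75 (double-KO minus Mll1-KO) and 2.32 (Mll2-KO minus WT), and at day 4 Asns lies farthest right at 0.94 and 0.90.

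Loss of Mll1 at day 0 went with higher Atf4 mRNA and higher levels of part of the list. In Mll1-KO against WT at day 0, 21 members were called higher and 3 lower, where all genes gave 21.3% higher and 18.7% lower. The median was 0.17, against 0.0049 over all genes. With libraries scaled to equal column totals the counts were 16 and 4, and the share of all calls that were higher was 38.9% in place of 53.2%. Atf4 had 8228, 8269.7 and 7806 in Mll1-KO and 5625, 5480.5 and 5958 in WT, a difference of 0.51 ± 0.057 without overlap. Atf5 was higher by 0.74, Chac1 by 0.71, Slc7a3 by 0.53, Sesn2 by 0.52, Sars by 0.41 and Slc7a1 by 0.36. Ddit3 did not follow. Its 197, 228 and 211 in Mll1-KO lay below the 241, 256 and 273 of WT, with a difference of -0.28 ± 0.12 at an adjusted p of 0.068, which passed after column-total scaling (-0.34). Trib3 was higher by 0.23 ± 0.083, and its call was lost without the filter on low values (0.23), with column-total scaling (0.16), in edgeR (0.21) and without any 1 of 4 libraries (Mll1-KO replicate 1 or 3, WT replicate 1 or 2), with values of 0.19 to 0.24. Atf3 did not pass (0.13 ± 0.17). The 3 members called lower were Stc2 (-0.50), Pycr1 (-0.21) and Asns (-0.14). The Pycr1 call was lost without Mll1-KO replicate 3 (-0.16), WT replicate 2 (-0.18) or WT replicate 3 (-0.21).

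Slc7a11 was the transporter with the largest rise in Mll1-KO. It had 37.0, 59.5 and 54.0 normalized counts in Mll1-KO and 17.6, 21.3 and 14.8 in WT, or 1.43 ± 0.28. In double-KO it had 103, 93.5 and 79.1, so that double-KO exceeded Mll1-KO, Mll2-KO (27.7, 30.6 and 61.0) and WT in every library. Inhbe was also highest in every double-KO library, with 68.1, 66.5 and 51.6 in double-KO, 32.9, 22.5 and 27.0 in Mll1-KO, 33.1, 33.1 and 46.5 in Mll2-KO, and 10.7, 8.35 and 14.8 in WT. Between the single mutants, the Slc7a11 libraries overlapped. The Inhbe libraries nearly met, with 33.1 as the lowest of Mll2-KO and 32.9 as the highest of Mll1-KO. That pair of groups was not tested.

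Double-KO against WT at day 0 combined these changes, with 32 members called higher (26.6% of all genes) and 0 lower (27.1%), no member lower at an unadjusted p below 0.05, and 0 lower in edgeR and DESeq2. The median was 0.54, against -0.00096 over all genes. Inhbe and Slc7a11 led at 2.38 ± 0.28 and 2.30 ± 0.28, ahead of Ddit3 (1.47), Chac1 (1.44), Atf3 (1.34), Trib3 (1.25), Atf5 (1.20) and Pck2 (1.09). Atf4 was higher by 1.03 ± 0.057. Asns rose by 0.12 ± 0.042, a call lost with column-total scaling (0.062) and without double-KO replicate 3 (0.085), WT replicate 2 (0.12) or WT replicate 3 (0.12).

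Between the 2 treated groups at day 0, double-KO against Mll2-KO, 13 members were lower (24.3% of all genes) and 6 higher (23.4%), with a median of -0.12 beside -0.013 for all genes. Over all genes the share of calls that were higher was 49.0%, or 38.1% with column-total scaling, where the members' counts were 19 lower and 4 higher. Ddit3, with 728, 651 and 763 in double-KO and 1143, 1097 and 1681 in Mll2-KO, had a difference of -0.85. Nupr1 (-0.68), Trib3 (-0.55), Slc3a2 (-0.45), Wars (-0.40), Pycr1 (-0.34), Slc7a5 (-0.27) and Asns (-0.24) were also lower. The 6 called higher were Slc7a11 (1.26), Inhbe (0.72), Slc7a3 (0.44), Psat1 (0.17), Tars (0.17) and Sars (0.15), all of which were also called higher in Mll1-KO against WT. That comparison shares no library with this one, and these 6 were 100% of the members higher here and 28.6% of the 21 higher there, beside 62.4% and 68.4% for all genes. Of the 13 members lower here, only 2 (Asns and Pycr1) were also lower there, 15.4% of the 13 and 66.7% of the 3. For all genes called lower those shares were 52.5% and 68.3%. Atf4 had a difference of -0.011 ± 0.057 and Chac1 one of 0.054 ± 0.08, both with overlapping libraries. This comparison leaned on Mll2-KO replicate 3. Without it 9 members were lower, and Ppp1r15a went to -0.15 and lost its call (-0.40 with all libraries; also lost without double-KO replicate 1, at -0.37, or replicate 2, at -0.37). Without Mll2-KO replicate 2, 3 members were higher. The Inhbe call was lost without the filter (0.72), with column-total scaling (0.66) and without replicate 1 or 2 of either group (0.64 to 0.66). That of Sars was lost with column-total scaling (0.088) and without Mll2-KO replicate 1 (0.12) or 2 (0.13), and that of Tars without Mll2-KO replicate 2 (0.12). Atf3, not called here, passed with column-total scaling (-0.45), in edgeR (-0.43), in DESeq2 (-0.42) and without Mll2-KO replicate 2 (-0.61).

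The test of non-additivity asked whether the Mll2 effect differed without MLL1. At day 0 it was lower for 18 members (4.71% of all genes) and higher for 1 (4.42%). The median was -0.40 against -0.019 over all genes, with Mll2-KO replicate 3 included. Leaving out any 1 library gave 15 to 21 members lower. Trib3 had an Mll2 effect of 1.02 without MLL1 and 1.80 with it, a difference of -0.78 ± 0.12 (adjusted p = 0.00018). Atf5 (-0.70), Chac1 (-0.66), Atf4 (-0.52) and Ddit3 (-0.57) were of the same sign. The Ddit3 value passed at an adjusted p of 0.036. The call was lost without the filter (-0.57), in DESeq2 (-0.59) and without any 1 of 7 libraries (Mll1-KO replicate 2 or 3, Mll2-KO replicate 3, replicate 1 or 2 of double-KO or WT), with values of -0.38 (without Mll2-KO replicate 3) to -0.59 (without double-KO replicate 1). Stc2 was the member with a higher value (0.61). It averaged 439 normalized counts in double-KO and 317 in Mll1-KO, but 407 in Mll2-KO and 448 in WT. Its Mll2 effect thus had opposite signs without and with MLL1, and was not called with MLL1. The Stc2 call was lost without any 1 of 5 libraries (Mll1-KO replicate 3, Mll2-KO replicate 2, double-KO replicate 3, WT replicate 2 or 3), with values of 0.49 to 0.56. Asns (-0.10 ± 0.059), Atf3 (-0.52 ± 0.24, passing at -0.74 without Mll2-KO replicate 2) and Slc7a11 (-0.16 ± 0.39) did not pass.

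Most of the list was lower in WT cells at day 4 than at day 0. In WT at day 4 against WT at day 0, 33 of 36 members were lower (39.9% of the 15114 genes tested) and 2 higher (43.0%), with a median of -1.71, beside 0.044 over all genes. Scaling to column totals moved the median of all genes by 0.12 and left these counts at 33 and 2. Media, serum and LIF differed between the days along with the cell state, and cannot be told apart. Over the same days the summed pluripotency markers were 5408 to 6669 in day 4 WT and 109000 to 109700 in day 0 WT. The summed endoderm markers were 24450 to 25020 in day 4 WT and 5787 to 6431 in day 0 WT; their part in the change was not tested.

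Nupr1 had 16.3, 14.0 and 18.9 normalized counts in day 4 WT, against 763, 777 and 776 in day 0 WT, a difference of -5.48 ± 0.17. The arginine carrier Slc7a3 had 45.7, 60.1 and 77.8 at day 4 and 2373, 2276 and 2165 at day 0 (-5.22). These were the steepest falls of the list. Stc2 (-4.12), Cth (-3.56), Trib3 (-3.08), Mthfd2 (-3.06), Chac1 (-3.01), Slc7a5 (-2.96), Asns (-2.88) and Atf4 (-1.05) were lower too. Asns, for example, had 1423, 1670.0 and 1529 in day 4 WT and 11391, 11338 and 11274 in day 0 WT. All 10 synthesis enzymes, all 6 transporters and all 7 tRNA synthetases were lower, the synthetases with differences of -0.66 (Wars) to -1.80 (Aars). Slc7a11 had 1.02, 4.01 and 2.36 at day 4 and 17.6, 21.3 and 14.8 at day 0. Fgf21 was at 0 in all day 4 WT libraries, against 10.7, 6.84 and 1.55 at day 0, at least 6.01-fold lower with a floor of 3 counts over the group. With Fgf21 at that bound the median stayed at -1.71.

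Atf3 and Ppp1r15a went the other way. Atf3 had 519, 525 and 509 in day 4 WT and 77.3, 58.5 and 70.7 in day 0 WT, higher by 2.90 ± 0.13. Ppp1r15a had 1081, 1119 and 1000.2 at day 4 and 707, 700.2 and 679.5 at day 0, higher by 0.61 ± 0.12. Ddit3 was the 1 member not called (0.13 ± 0.12), with 281, 288 and 271 at day 4 overlapping 241, 256 and 273 at day 0.

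**Figure D3:**
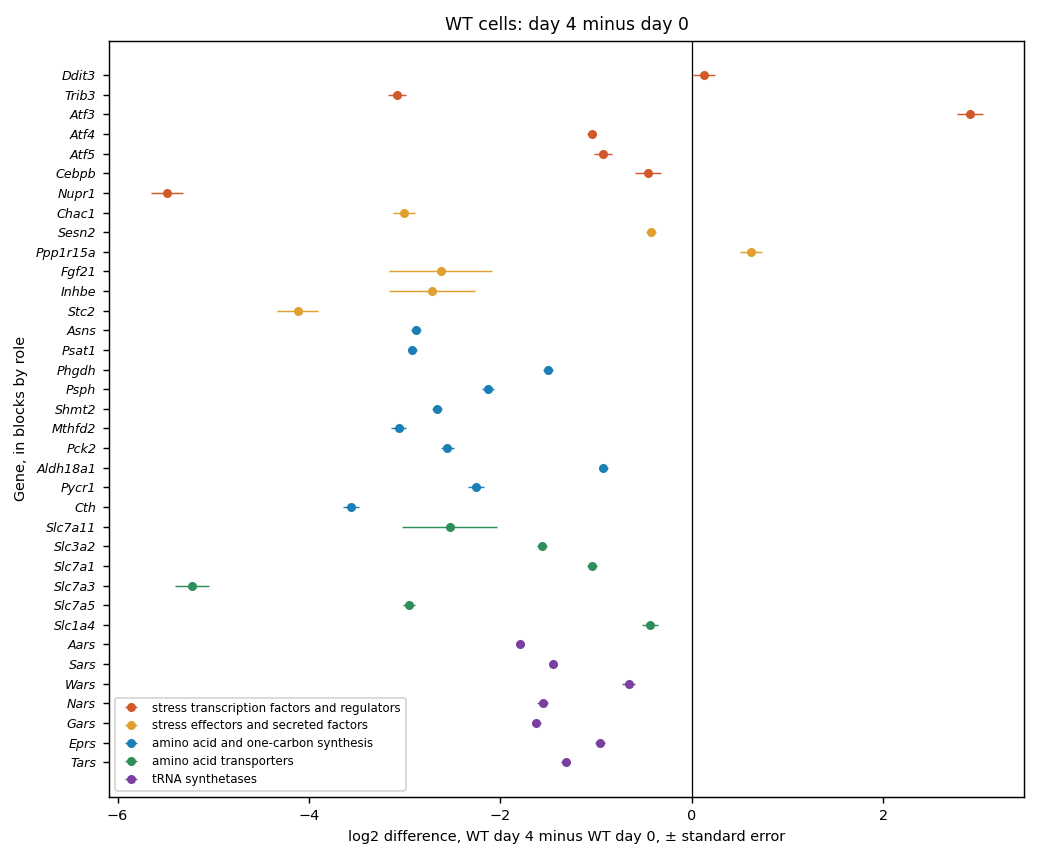
Difference of each gene between WT day 4 and WT day 0 on the log2(normalized count + 1) scale, with its standard error, coloured by role. Nupr1 (-5.48) and Slc7a3 (-5.22) lie farthest left, Atf3 (2.90) farthest right, and Ddit3 (0.13) near 0.

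At day 4, Mll2-KO again had more mRNA of most members. Of the 36 members 33 passed the filter on low values; Fgf21, Inhbe and Slc7a11 had at most 10.7 normalized counts in any day 4 library and were not tested. In Mll2-KO against WT, 23 of the 33 were called higher (25.4% of all 14303 genes) and 2 lower (20.3%), with a median of 0.28 against 0.040 over all genes. Those higher were 4 of 7 transcription factors and regulators, 2 of 4 effectors, 7 of 10 synthesis enzymes, 4 of 5 transporters and 6 of 7 tRNA synthetases. With column-total scaling the counts were 19 and 3, and the share of all calls that were higher was 34.5% in place of 55.6%. Markers moved too: the pluripotency sum was 8080 to 9269 in Mll2-KO and 5408 to 6669 in WT, and the endoderm sum 30830 to 32120 in Mll2-KO and 24450 to 25020 in WT. Their part in the result was not tested.

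Asns changed most at day 4, with 2932, 2919 and 2763 normalized counts in Mll2-KO against 1423, 1670.0 and 1529 in WT. The difference of 0.90 ± 0.055 was larger than on day 0, and the libraries were far apart. Slc7a5 was higher by 0.62, Trib3 by 0.56, Pck2 by 0.50, Mthfd2 by 0.49, Pycr1 by 0.47 and Psat1 by 0.42. Atf4 had 3677, 3725 and 3687 in Mll2-KO and 2713, 2759 and 2783 in WT, or 0.43 ± 0.038, and Atf5 was higher by 0.63. Chac1 was higher by 0.68 ± 0.16. Ddit3, with 340.1, 436 and 351 in Mll2-KO and 281, 288 and 271 in WT, was higher by 0.41 ± 0.091 without overlap. Atf3 did not pass (-0.025 ± 0.071, libraries overlapping). The 2 members called lower were Ppp1r15a (-0.23) and Cth (-0.26). The Cth call was lost without the filter (-0.26) and without any 1 of 5 libraries (Mll2-KO replicate 2 or 3, or any WT replicate), with values of -0.30 to -0.20.

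Double-KO against Mll1-KO at day 4 gave 18 members higher (31.1% of all genes) and 4 lower (23.7%), with a median of 0.15 against 0.044 over all genes. Column-total scaling moved the median of all genes by -0.11, gave 36.2% of all calls higher in place of 56.7%, and left 12 members higher and 6 lower. The pluripotency sum was 4277 to 4504 in double-KO and 2839 to 3242 in Mll1-KO, with 7 of 8 markers higher (median 0.70). The endoderm sum was 16790 to 17650 in double-KO and 11060 to 11990 in Mll1-KO, with 11 of 12 markers higher (median 0.53). Their part in the result was not tested. Asns had 2138, 2065 and 2112 in double-KO and 1017, 1145 and 1143 in Mll1-KO, a difference of 0.94 ± 0.055. Psat1 (0.65), Slc1a4 (0.57), Gars (0.47), Mthfd2 (0.43), Atf4 (0.40), Nars (0.37) and Trib3 (0.34) were also higher. The Trib3 call was lost with column-total scaling (0.24), in edgeR (0.31), in DESeq2 (0.31), without Mll1-KO replicate 1 (0.31) and without double-KO replicate 2 (0.27). Ddit3 (0.15 ± 0.091), Chac1 (0.071 ± 0.16) and Atf3 (0.14 ± 0.071) did not pass, and Atf3 passed at 0.22 without double-KO replicate 3. Of members higher here, 17 were also higher in Mll2-KO against WT, 94.4% of the 18 and 73.9% of the 23. For all genes those shares were 57.7% and 70.5%. The 4 members lower in double-KO were Stc2 (-1.24), Cebpb (-0.81), Cth (-0.71) and Phgdh (-0.44). Cth had 147, 150.2 and 123 in double-KO and 203, 222 and 265 in Mll1-KO, and Cebpb 245, 187 and 198 in double-KO and 322, 339.9 and 452 in Mll1-KO, without overlap for either.

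Loss of Mll1 at day 4 went with lower levels of part of the list. In Mll1-KO against WT, 12 of 33 members were lower (19.2% of all genes) and 3 higher (16.5%), with a median of -0.11 against -0.0024 over all genes. Those lower were 4 of 10 synthesis enzymes, 3 of 5 transporters, 4 of 7 tRNA synthetases and 1 of 7 transcription factors and regulators. With column-total scaling 10 were lower and 5 higher, and 60.3% of all calls were higher in place of 46.2%. Asns had 1017, 1145 and 1143 in Mll1-KO and 1423, 1670.0 and 1529 in WT, a difference of -0.48 ± 0.055 without overlap. Cth (-0.47), Trib3 (-0.39), Psat1 (-0.36), Aldh18a1 (-0.35), Gars (-0.28), Eprs (-0.25) and Slc1a4 (-0.25) were also lower. The Trib3 call was lost without WT replicate 1 (-0.32), and that of Slc1a4 without Mll1-KO replicate 2 (-0.17). Cebpb was higher by 0.85 ± 0.14, Pck2 by 0.55 ± 0.083 and Atf3 by 0.25 ± 0.071. Cebpb had 322, 339.9 and 452 in Mll1-KO and 179.9, 198 and 234 in WT, and Pck2 428, 412 and 397 in Mll1-KO and 256, 283 and 304 in WT. Atf4 (-0.073 ± 0.038), Ddit3 (0.12 ± 0.091) and Chac1 (0.41 ± 0.16) did not pass; Chac1 passed with column-total scaling (0.46) and without Mll1-KO replicate 1 (0.51), where 5 members in place of 3 were higher. The pluripotency sum was 2839 to 3242 in Mll1-KO and 5408 to 6669 in WT, with 8 of 8 markers lower. The endoderm sum was 11060 to 11990 in Mll1-KO and 24450 to 25020 in WT, with 12 of 12 markers lower. The part of both in the result was not tested.

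Loss of Mll1 in treated cells, double-KO against Mll2-KO, gave 17 members lower (20.9% of all genes) and 3 higher (19.4%), with a median of -0.16 against -0.0083 over all genes. The pluripotency sum was 4277 to 4504 in double-KO and 8080 to 9269 in Mll2-KO, with 8 of 8 markers lower, and the endoderm sum 16790 to 17650 in double-KO and 30830 to 32120 in Mll2-KO, with 11 of 12 lower. Their part in the result was not tested. Of the 17, 11 were also lower in Mll1-KO against WT, 64.7% of the 17 and 91.7% of the 12. For all genes called lower those shares were 51.7% and 56.1%. Cth had 147, 150.2 and 123 in double-KO and 286, 253 and 252 in Mll2-KO (-0.91 ± 0.11). Aldh18a1 (-0.66), Trib3 (-0.61), Slc7a5 (-0.45), Asns (-0.45), Phgdh (-0.44), Pycr1 (-0.40) and Mthfd2 (-0.29) followed. The 3 higher were Atf3 (0.42), Ppp1r15a (0.22) and Sesn2 (0.13). Atf4 had a difference of -0.099 ± 0.038, a call lost with column-total scaling (-0.070), in edgeR (-0.083) and without any Mll2-KO replicate or double-KO replicate 2 or 3 (-0.10 to -0.084). Ddit3 (-0.15 ± 0.091) and Chac1 (-0.20 ± 0.16) did not pass. The call of Mthfd2 was lost without Mll2-KO replicate 1 or 2 or double-KO replicate 3 (-0.27 to -0.24), that of Sesn2 without Mll2-KO replicate 1 or 2 or double-KO replicate 2 (0.10 to 0.12), and that of Ppp1r15a without double-KO replicate 1 (0.15).

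In double-KO against WT at day 4 both directions met, with 17 members higher (27.6% of all genes) and 4 lower (23.3%), and a median of 0.13 against 0.026 over all genes. Column-total scaling gave 12 and 5, and 41.4% of all calls higher in place of 54.2%. The pluripotency sum was 4277 to 4504 in double-KO and 5408 to 6669 in WT, and the endoderm sum 16790 to 17650 in double-KO and 24450 to 25020 in WT; their part in the result was not tested. Chac1 (0.48), Asns (0.45), Atf5 (0.45), Atf3 (0.39), Pck2 (0.37), Atf4 (0.33), Sesn2 (0.32), Slc1a4 (0.32) and Ddit3 (0.27) were higher. Ddit3 lost its call with column-total scaling (0.20), in DESeq2 (0.25) and without double-KO replicate 1 (0.22) or WT replicate 3 (0.24), and Chac1 in DESeq2 (0.46) and without double-KO replicate 1 (0.44) or WT replicate 2 (0.41). The 4 lower were Stc2 (-1.19), Cth (-1.17), Phgdh (-0.40) and Aldh18a1 (-0.33). Cth had 147, 150.2 and 123 in double-KO and 303, 346 and 302 in WT, so that all double-KO libraries lay below every other library of the study. Stc2 had only 6.72, 10.7 and 14.8 in double-KO and 21.3, 26.1 and 27.1 in WT. Trib3 did not pass (-0.053 ± 0.12).

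Non-additivity at day 4 was called for 6 members with a lower value (6.05% of all genes) and 1 with a higher value (7.59%), with a median of -0.061 against 0.00075 over all genes. The Mll2 effect on Pck2 was -0.19 without MLL1 and 0.50 with it, a difference of -0.69 ± 0.12. Phgdh (-0.47), Atf5 (-0.33) and Slc7a5 (-0.33) were the other named members below 0, and Psat1 (0.23) lay above it. Atf5 lost its call without the filter (-0.33), in DESeq2 (-0.34) and without any 1 of 8 libraries (Mll1-KO replicate 1 or 3, Mll2-KO replicate 1 or 2, double-KO replicate 2 or 3, WT replicate 1 or 2), with values of -0.34 to -0.24. Psat1 lost its call without the filter (0.23), with column-total scaling (0.21), in DESeq2 (0.22) and without any 1 of 9 libraries (Mll1-KO replicate 1 or 3, any Mll2-KO replicate, replicate 2 or 3 of double-KO or WT), with values of 0.18 to 0.24. Slc7a5 lost its call without Mll2-KO replicate 2 (-0.25), where 3 members in place of 6 had a lower value. Asns (0.035 ± 0.077), Atf4 (-0.026 ± 0.054), Ddit3 (-0.27 ± 0.13), Chac1 (-0.61 ± 0.23), Trib3 (-0.21 ± 0.17) and Atf3 (0.16 ± 0.10) did not pass.

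The change of each mutant effect between the days was tested in 1 fit of all 24 libraries. For Mll2-KO the effect was lower at day 4 than at day 0 for 24 members (17.0% of all genes) and higher for 2 (19.3%), with a median of -0.48 against 0.020 over all genes. Column-total scaling gave 27 and 2, and 37.5% of all calls higher in place of 53.2%. All 7 transcription factors and regulators were among the 24. The Ddit3 effect was 0.41 at day 4 and 2.32 at day 0, a difference of -1.90 ± 0.16. Atf3 (-1.75), Cebpb (-1.54), Nupr1 (-1.41), Trib3 (-1.24), Chac1 (-0.71) and Atf4 (-0.62) followed. Nupr1 was low on its day 4 side, with 10.9 to 21.4 normalized counts in Mll2-KO and 14.0 to 18.9 in WT. The 2 members with a larger effect at day 4 were Asns, with 0.90 at day 4 and 0.37 at day 0 (0.53 ± 0.07), and Psat1, with 0.42 at day 4 and 0.12 at day 0 (0.31 ± 0.061). Both are synthesis enzymes, for asparagine and serine. Slc7a11 (-1.25 ± 0.70) did not pass and rests on 0 to 4 reads per library on its day 4 side.

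For Mll1-KO the effect was lower at day 4 for 21 members (19.0% of all genes) and higher for 2 (15.0%), with a median of -0.35 against -0.014. Column-total scaling moved the median of all genes by 0.11, gave 17 and 3, and left 64.7% of all calls higher in place of 44.0%. Slc7a3 (-1.08), Cth (-0.73), Psat1 (-0.67), Trib3 (-0.62), Atf4 (-0.58) and Asns (-0.34) were lower, and Cebpb (0.74) and Pck2 (0.43) higher. Atf4 and Psat1, for example, had effects of -0.073 and -0.36 at day 4 and of 0.51 and 0.31 at day 0. Ddit3 (0.40 ± 0.16), Atf3 (0.12 ± 0.19), Chac1 (-0.30 ± 0.16) and Slc7a11 (-0.93 ± 0.70) did not pass; Ddit3 passed with column-total scaling (0.51), and Slc7a11 with a pseudocount of 5 (-1.03).

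For double-KO the effect was lower at day 4 for 28 members (19.2% of all genes) and higher for Asns alone (20.3% of all genes were higher), with a median of -0.58 against 0.011. Cth had an effect of -1.17 at day 4 and 0.47 at day 0, a difference of -1.65 ± 0.12 and a change of sign. Inhbe (-2.80) was the largest by value but rests on 0 to 2 reads per library at day 4, and its call was lost in edgeR (-3.60). Trib3 (-1.30), Ddit3 (-1.20), Chac1 (-0.96), Atf3 (-0.94) and Atf4 (-0.71) were lower too. Asns was higher by 0.33 ± 0.07. Slc7a11 (-1.39 ± 0.70) did not pass, but did with a pseudocount of 5 (-1.59) and without day 4 double-KO replicate 2 (-1.86).

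**Figure D4:**
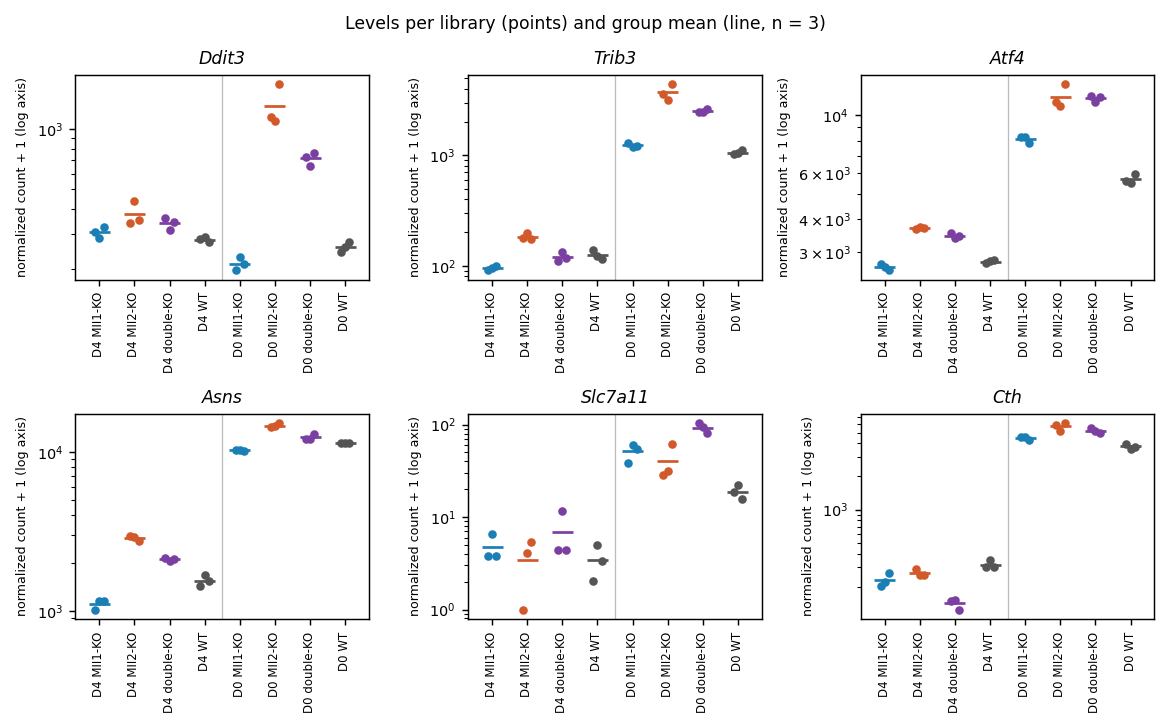
Normalized count + 1, on a log axis, of 6 genes in each library (points) with the group mean (line, n = 3), day 4 left of the grey line and day 0 right of it, with WT last within each day. Day 0 Mll2-KO stands highest for Ddit3 (1097 to 1681) and Trib3 (3141 to 4441), double-KO highest for Slc7a11 at day 0 (79.1 to 103), and double-KO lowest for Cth at day 4 (123 to 150.2).

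Genes around the response are given by counts, to be read against the 22.8% higher and 24.3% lower of all genes in day 0 Mll2-KO against WT. Among 17 genes of the eIF2α kinases and eIF2 machinery, day 0 Mll2-KO against WT called 6 higher and 2 lower. The largest was Impact, an inhibitor of GCN2 activation, at 1.05, followed by Dele1, which relays mitochondrial stress to HRI, at 0.42, and the 2 lower were Ppp1cc (-0.21) and Eif2s1 (-0.18). Among 28 tested further targets and partners of ATF4 and CHOP, 18 were higher and 5 lower, led by Jdp2 (1.71), a bZIP repressor, and the stress cytokine Gdf15 (1.65), with Gadd45b (-0.62) and Ero1l (-0.57) lowest. Of 16 other cytosolic tRNA synthetases and their cofactors, 7 were higher, with Lars (0.45) and Cars (0.43) first, and 2 lower, Aimp2 (-0.51) and Dars (-0.18). Of 17 mitochondrial synthetases, 2 were higher (Sars2, 0.26, and Vars2, 0.25) and 5 lower, led by Yars2 (-0.38) and Mars2 (-0.32).

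The ATF6 and XBP1 arm of the unfolded protein response, which senses misfolded protein in the endoplasmic reticulum, split at day 0. In Mll2-KO against WT, 7 of 21 genes were higher, led by Herpud1 (1.02) and Atf6 (0.60), and 10 lower, among them the chaperones Hspa5 (-0.52) and Hsp90b1 (-0.49). At day 4 in the same comparison, where all genes gave 25.4% higher and 20.3% lower, 18 of the 21 were higher, led by Sdf2l1 (0.69) and Edem1 (0.48), and none lower in limma. NRF2 targets, the antioxidant programme that also includes Slc7a11, gave 3 higher (Nfe2l2 0.44 and Hmox1 0.39 first) and 4 lower (Me1 -0.32 and G6pdx -0.15 lowest) of 11 at day 0 in Mll2-KO, and 9 higher of 12 at day 4. In day 0 Mll1-KO against WT, where all genes gave 21.3% higher and 18.7% lower, 7 of 11 NRF2 targets were higher, led by Gclm (0.47) and Txnrd1 (0.41), and 2 lower, Me1 (-0.92) and Abcc1 (-0.49). Of 10 mitochondrial chaperones and proteases, 3 were higher and 3 lower in day 0 Mll2-KO, with Hspa9 (0.36) and Opa1 (0.20) highest and Hspd1 (-0.38) and Hspe1 (-0.18) lowest. Of 11 one-carbon and serine cycle genes outside the list, 4 were higher, among them Amt (0.29), and 6 lower, with the S-adenosylmethionine synthetase Mat2a at -1.14 and Gcsh at -0.38.

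The endoderm, feeder-list and neural sums differed between genotypes at day 0 by the MLL1 state, unlike the pluripotency and retinoic acid sums. Summed over 12 endoderm markers the level was 689 to 725 in Mll1-KO, 4767 to 5306 in Mll2-KO, 756 to 846 in double-KO and 5787 to 6431 in WT, with Afp and Ttr below 1 in all groups. The fibroblast feeder list summed to 153 to 198 in Mll1-KO, 570.4 to 649.8 in Mll2-KO, 143 to 182 in double-KO and 658 to 731 in WT, with the fibroblast genes Postn and Lum below 1 in every group. In this list the highest day 0 group mean was 548 for Pdgfra, against 111 for Thy1 and 24 for Col1a1. The sum therefore does not by itself measure feeder cells. At day 4 the sum of this list was 9859 to 10450 in Mll1-KO, 10640 to 11650 in Mll2-KO, 16970 to 17700 in double-KO and 8570 to 9045 in WT. The highest day 4 group mean was 12630 for Col3a1 and 3492 for Pdgfra. Retinoic acid response genes summed to 16180 to 22330 over the day 4 libraries. Their day 0 sums were 635 to 683 in Mll1-KO, 575.5 to 658 in Mll2-KO, 489 to 567 in double-KO and 453 to 510 in WT. Neural markers summed to 4496 to 5188 in Mll1-KO, 3306 to 4081 in Mll2-KO, 5865 to 6394 in double-KO and 3631 to 4136 in WT at day 4. At day 0 they summed to 2352 to 2452 in Mll1-KO, 1309 to 1551 in Mll2-KO, 2410 to 2671 in double-KO and 1535 to 1731 in WT, higher in both groups without MLL1. At day 0 the endoderm and feeder-list sums of Mll2-KO were below those of WT. Of the markers tested there, 1 of 9 endoderm and 0 of 3 feeder-list genes were called lower, against 24.3% of all genes. The part of these markers in the results was not tested.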

How the data were processed

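The deposited table gave normalized counts, a signal per gene that the authors made by dividing read counts by a size factor per library. Per the submitters' processing notes, reads were handled with STAR 2.7.10a and RSEM 1.3.1 on mm10, and the tools also named are DESeq2 1.34.0, SAMtools 1.13, Trim Galore 3.4 and FastQC; the gene annotation used for counting is not given in the sources used here. Whole reads could be recovered for 100% of values (tolerance 1e-06), at 10748425 to 22787858 reads per library. Values were tested as log2(normalized count + 1) with limma 3.58.1 (R 4.3.3, trend), on genes that reached a value of 10 in 3 or more libraries of the fit, with Benjamini-Hochberg adjustment over all genes tested and a call at an adjusted p below 0.05. Each day was fitted with its 12 libraries, and the changes between days with all 24. There were 16 comparisons. No 2 libraries agreed within sampling noise (chi-square per degree of freedom 1.85 to 11.5), so all were counted.

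In each comparison of 2 groups the text names up to 8 rises and 8 falls among called members whose higher group averaged 50 or more, and in each interaction up to 4 in each direction, together with Atf4, Ddit3, Asns, Chac1, Trib3, Atf3 and Slc7a11; other members were named after their values were seen. The members and all gene lists were chosen with earlier results of these data known. The 8 further pathway lists and 5 marker lists are described by counts, with up to 2 rises and 2 falls named for each pathway list; 1 such gene is not reported here. Alternatives were pseudocounts of 0.5 and 5, no filter, scaling to column totals, a replicate block, leaving out each library, and edgeR 4.0.16 and DESeq2 1.42.0 on the recovered reads. The steps were tested on simulated data. Promoter sequences are RefSeq's for GRCm38.p6, and gene positions and exon overlaps come from GENCODE M21 (mm10).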

Additional observations from a re-analysis of the deposited data

Results flagged for a closer look

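Each result here is a difference between effects that passed its own test in limma at an adjusted p below 0.05. The Mll2 effect at day 0 differed between cells without and with MLL1 for 19 members. It was smaller without MLL1 for Trib3 (-0.78), Atf5 (-0.70), Chac1 (-0.66) and Ddit3 (-0.57). For Stc2 it was higher without MLL1 (0.61), with opposite signs in the 2 settings. At day 4 it differed for 7 members, among them Pck2 (-0.69), Phgdh (-0.47), Atf5 (-0.33), Slc7a5 (-0.33) and Psat1 (0.23). The calls of Ddit3 and Stc2 at day 0 and of Atf5, Slc7a5 and Psat1 at day 4 were lost under alternatives given above.

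Between day 4 and day 0 the Mll1-KO effect differed for 23 members. It was lower at day 4 for Slc7a3 (-1.08), Cth (-0.73), Psat1 (-0.67) and Trib3 (-0.62), and higher for Pck2 (0.43) and Cebpb (0.74). The Mll2-KO effect differed for 26 members, with Ddit3 (-1.90), Atf3 (-1.75), Cebpb (-1.54) and Nupr1 (-1.41, at low day 4 levels) lower at day 4, and Psat1 (0.31) and Asns (0.53) higher. The double-KO effect differed for 29 members. Inhbe (-2.80), Cth (-1.65), Trib3 (-1.30) and Ddit3 (-1.20) were lower at day 4, and Asns (0.33) was higher. The Inhbe value rests on 0 to 2 reads per library at day 4, and its call was lost in edgeR.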

How the results depend on the processing

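No named value that was called changed direction under any alternative. Of the named values that were not called, 7 took the other sign in 12 alternatives, at -0.036 to 0.19. Among them, Chac1 went to -0.0076 in double-KO against Mll2-KO at day 0 and to -0.036 in double-KO against Mll1-KO at day 4 with column-total scaling. With column-total scaling, 5 members in place of 3 were higher in Mll1-KO against WT at day 4. In Mll2-KO against WT at day 4 the members lower were 1 in place of 2 without the filter and with the replicate block, Cth being lost. The 1 member higher in the day 4 non-additivity test, Psat1, was lost (0) without the filter, with column-total scaling and in DESeq2. The cause was not tested. Leaving out each library gave 3 to 8 members higher and 9 to 16 lower in double-KO against Mll2-KO at day 0, 0 to 1 higher in the day 0 non-additivity test, 3 to 5 higher in Mll1-KO against WT at day 4, 1 to 2 lower in Mll2-KO against WT at day 4, and 0 to 1 higher and 3 to 7 lower in the day 4 non-additivity test. Among 197 named values the call was lost for 6 in DESeq2, 4 in edgeR and 6 without the filter. It was lost for 8 with column-total scaling, 3 with the replicate block and none at either pseudocount. Calls were gained for 4 with column-total scaling, 2 at a pseudocount of 5, and 1 each in DESeq2, edgeR and the replicate block. Over all fits without 1 library, calls were lost 77 times, gained 5 times and the same 1406 times. Same-numbered libraries had a median correlation of deviations of 0.00568 (-0.0446 to 0.0768, 36 pairs). Libraries with other numbers had one of -0.00681 (-0.0963 to 0.0578, 72 pairs). A value near 0 over all genes cannot decide whether replicate numbers pair the libraries. With the replicate block, Cth in Mll2-KO against WT (-0.26), Atf4 in double-KO against Mll2-KO (-0.099) and Atf5 in non-additivity (-0.33), all at day 4, lost their calls, and Ddit3 in Mll1-KO against WT at day 0 (-0.28) gained one. Depth limits Fgf21, Inhbe and Slc7a11, which had 0 to 7 reads in each day 4 library.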
